A study of Mus musculus with 7 samples.

Results

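Lymphoid priming genes are genes of the B and T lineages that early blood progenitors can transcribe before they commit to a lymphoid fate. The 31 genes described here were chosen by name from 9 roles: cytokine receptors, Ikaros zinc finger factors, E proteins with their Id inhibitors, B lineage and T lineage transcription factors, the recombination machinery, the pre-B cell receptor, T cell receptor signalling proteins and lymphoid surface proteins. All 31 were found among the 22680 genes of the deposited expression table. The RNA came from sorted cells of the fetal liver, taken 13.5 days post coitum from animals on the C57BL/6 background. Sequenced were 3 libraries of Uhrf1-/- LSK cells, 1 library of wild-type LK cells and 3 libraries of wild-type LSK cells, each sorted in 2 rounds. LSK cells lack lineage markers, carry Sca-1 and c-Kit, and include the stem cells and multipotent progenitors, whereas LK cells have c-Kit but no Sca-1. The labels give the genotype only as Uhrf1-/-, with no deleting enzyme, deleted exon or number of animals per library, and the design speaks of 3 independent experiments.

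Uhrf1 binds hemimethylated DNA behind the replication fork and recruits the maintenance methyltransferase Dnmt1. In lymphoid specification, Ikaros and the E proteins open lymphoid loci in multipotent progenitors, interleukin-7 signals through the receptor chains encoded by Il7r and Il2rg, Ebf1 and Pax5 then fix the B lineage, and Tcf7 and Gata3 act in the T lineage. The Rag proteins cut the antigen receptor genes, and terminal transferase, encoded by Dntt, adds bases at the joints. In the mouse, fetal liver progenitors make their first B cells around this stage, and terminal transferase is largely an enzyme of postnatal lymphocytes.

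Library totals of the deposited count values ran from 15556959 to 21017402. Dividing them by the step of each library gave estimated totals of 16808525 to 25803006 reads. The step was the low value that recurred most often in a library, refined over its multiples. Uhrf1 itself stood at 10.2, 8.78 and 18.6 FPKM in Uhrf1-/- LSK cells, 115.9 FPKM in LK cells and 63.0, 66.8 and 112.8 FPKM in wild-type LSK cells. FPKM is a read count scaled by gene length and library size. Ly6a, the gene of Sca-1, ranged from 36.9 to 96.4 FPKM in Uhrf1-/- LSK cells, was 0.321 FPKM in LK cells and ranged from 26.4 to 56.8 FPKM in wild-type LSK cells, so its level followed the sort labels. Within every replicate number it was higher in Uhrf1-/- LSK cells (84.6, 96.4 and 36.9 FPKM) than in wild-type LSK cells (56.8, 34.3 and 26.4 FPKM). Replicate 3 stood apart from replicates 1 and 2 in both genotypes in the immediate early gene Junb, which was 22.4 FPKM in Uhrf1-/- and 5.31 FPKM in wild-type replicate 3, and between 188 and 250 FPKM in the other 4 LSK libraries. Wild-type replicate 2 had 4.75% of its count values in ribosomal protein genes, against 10.6% to 15.7% in the other 6 libraries. On the log2(FPKM + 1) scale, Uhrf1-/- replicates 1 and 2 correlated at 0.9936. All other pairs of LSK libraries correlated less, from 0.898 to 0.9835, the highest being Uhrf1-/- replicate 1 with wild-type replicate 1. Uhrf1-/- replicate 2 correlated at 0.9821 with wild-type replicate 1 and at 0.9505 with wild-type replicate 2. Why Uhrf1-/- replicates 1 and 2 were so alike was not tested.

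Setting Uhrf1-/- against wild-type LSK cells asked which lymphoid genes change when Uhrf1 is lost. Lax1, an adaptor of lymphocyte receptor signalling, fell in Uhrf1-/- LSK cells. It was the only one of the 31 genes that passed an adjusted p of 0.05 in the test without a replicate block, and the other members that passed, Il7r, Cd7, Satb1 and Rag2, did so on FPKM only when the replicate number was fitted as a block. In bulk libraries, fewer cells that express a gene and less RNA of it per cell cannot be told apart. Of the 31 genes, 20 had a mean of at least 1 FPKM over the 6 LSK libraries and were tested with limma on log2(FPKM + 1), and 11 were below that level. A gene is named as called where its p, adjusted over all 10608 genes tested, was under 0.05.

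Called lower without the block were 1 of 20 members, against 0.0566% of all tested genes, and called higher were 0 of 20, against 0.113%. Called lower with the block were 5 of 20, against 0.830% of all tested genes, and called higher were 0 of 20, against 1.23%. An unadjusted limma p under 0.05 was found for 7 members, against 5.57% of tested genes. In 10 members every Uhrf1-/- library was below every wild-type LSK library, which held for 6.16% of tested genes, and in 0 members was every Uhrf1-/- library above, which held for 4.61%. The difference was negative within all 3 replicate numbers for 11 members, against 18.3% of tested genes, and positive within all 3 for 1 member, Ikzf2, against 13.9%. A log2 fold change of -1 or below was found for 6 members, against 0.990% of tested genes. The median log2 fold change was -0.43 over the 20 tested members and -0.03 over all tested genes. Il7r, Rag2 and Cd7 reached the minimum through their wild-type level alone, so these counts and medians describe the genes that passed and are no test of the list.

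**Figure D1:**
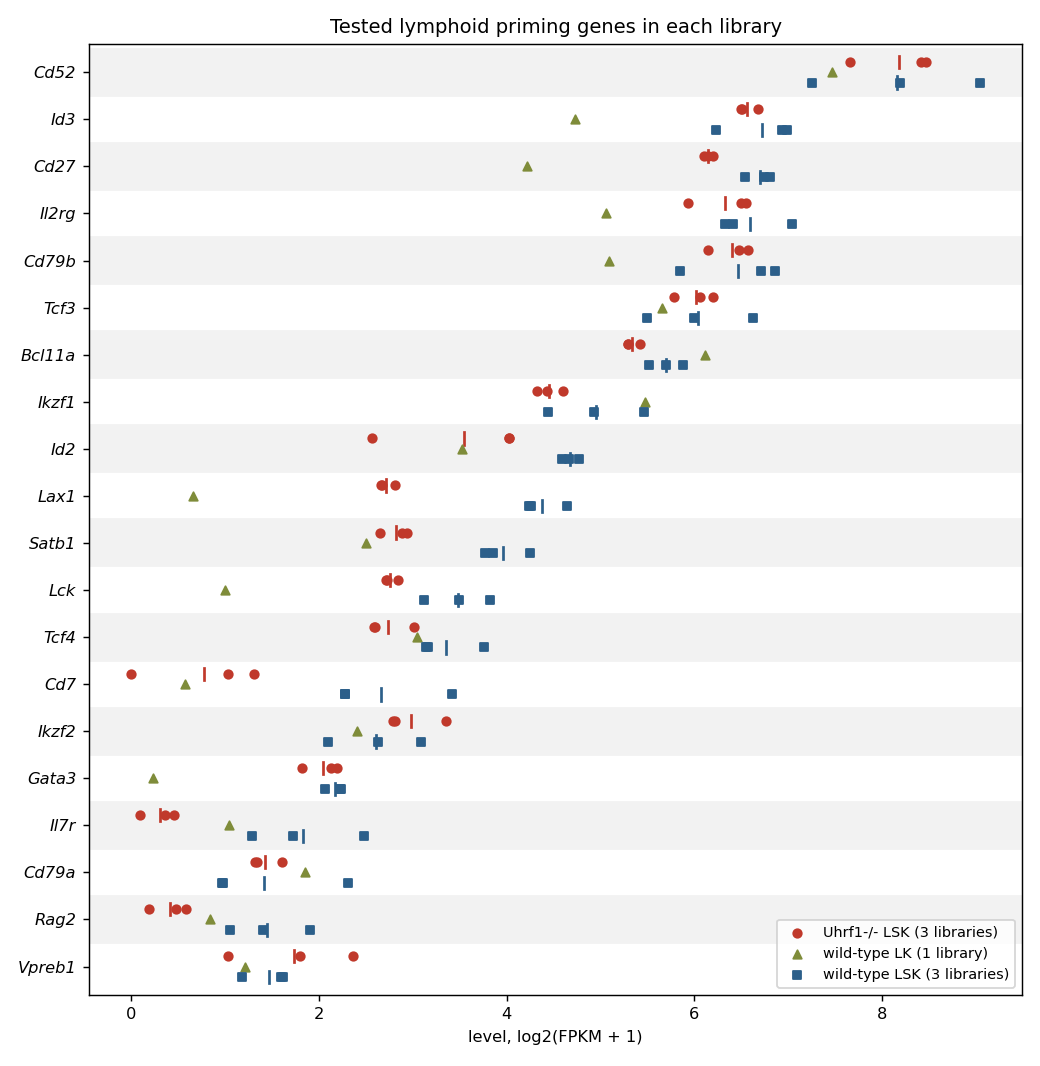
Level of the 20 tested genes in every library on the log2(FPKM + 1) axis, ordered by the wild-type LSK mean. Circles are Uhrf1-/- LSK, triangles wild-type LK and squares wild-type LSK libraries, and short vertical lines are the means of 3 libraries. For Lax1, Satb1, Il7r and Cd7 all 3 circles lie left of all 3 squares, whereas circles and squares overlap for Cd52, Id3, Il2rg, Cd79b and Tcf3.

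Among the T cell receptor signalling genes, Lax1 (Entrez gene 240754, protein-coding, chromosome 1, 133679017 to 133693022 of GRCm38, minus strand) had 5.32, 6.02 and 5.39 FPKM in Uhrf1-/- LSK cells, against 18.1, 23.96 and 17.9 FPKM in wild-type LSK cells. These values came from 227 to 260 estimated reads per Uhrf1-/- library and 719 to 1405 per wild-type library. The groups did not overlap, and the Uhrf1-/- libraries lay close together. Lax1 averaged 5.58 ± 0.388 FPKM in Uhrf1-/- and 19.99 ± 3.44 FPKM in wild-type LSK cells (SD, n = 3 each), a log2 fold change of -1.66 (SE 0.25, adjusted p = 0.035, adjusted p = 0.00046 with the replicate block). The call did not hold when any 1 of the 6 LSK libraries was left out without the block (adjusted p from 0.065 to 0.154) and, with the block, when pair 2 was left out (0.065), and over all alternatives the adjusted p ranged from 6.7e-06 to 0.251.

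Lck, the Src-family kinase that starts signalling from the T cell receptor (chromosome 4, 129548344 to 129573641, minus strand), was not called. It had 5.61, 5.56 and 6.16 FPKM in Uhrf1-/- LSK cells, against 7.70, 10.2 and 13.1 FPKM in wild-type LSK cells. No overlap was seen between the groups, but the wild-type values were spread widely (log2 fold change -0.72, 95% interval -1.32 to -0.12, adjusted p = 0.725, with the block 0.177). Cd3e, an invariant chain of the T cell receptor complex, was listed at 0 in all 7 libraries. Transcripts of Lck and Lax1 were thus measured in libraries in which Cd3e was not detected. Cd3d, Cd3g and Cd247, of the same complex, were above 0 in most libraries, at no more than 0.820 FPKM.

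Of the cytokine receptors, Il7r, the ligand-binding chain for interleukin-7 (Entrez gene 16197, chromosome 15, 9506159 to 9529941, minus strand), had 0.281, 0.371 and 0.0679 FPKM in Uhrf1-/- LSK cells, against 2.29, 1.43 and 4.56 FPKM in wild-type LSK cells. The estimated reads were 25, 34 and 7 in the Uhrf1-/- libraries, against 180, 159 and 600 in the wild-type libraries. The ranges did not overlap, and replicate 3 held both the lowest Uhrf1-/- and the highest wild-type value. Uhrf1-/- over wild type, the log2 fold change was -1.52 (SE 0.31, negative within each of the 3 replicate numbers, adjusted p = 0.104, with the block 0.0046), and on the scale of the deposited count values, where the added 1 weighs less on this gene, it was -2.68. Its adjusted p ranged from 1.1e-07 to 0.391 over the alternatives. With the block, Il7r passed without replicate pair 1 or 3 and did not pass without pair 2 (adjusted p = 0.090).

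The partner chain gene Il2rg, shared by several cytokine receptors, had 93.1, 89.6 and 60.3 FPKM in Uhrf1-/- LSK cells, against 84.1, 131.1 and 79.2 FPKM in wild-type LSK cells. These ranges overlapped, and the difference was not called (log2 fold change -0.26, 95% interval -0.95 to 0.42, adjusted p = 0.943). Per unit length, Il2rg transcripts were thus many times more abundant than those of Il7r in every library. Il2ra, the alpha chain of the interleukin-2 receptor, had at most 1 estimated read in any library.

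Among the surface proteins, Cd7, an immunoglobulin-superfamily protein of T and NK precursors (Entrez gene 12516, chromosome 11, 121036747 to 121039478, minus strand), had 1.48, 1.04 and 0 FPKM in Uhrf1-/- LSK cells, against 9.68, 3.85 and 3.84 FPKM in wild-type LSK cells. The Uhrf1-/- values rested on 23, 16 and 0 estimated reads, and the wild-type values on 142, 82 and 95. The groups did not overlap, and wild-type replicate 1 was the highest library. The log2 fold change was -1.88 (SE 0.41, adjusted p = 0.150, with the block 0.00021). Cd7 was the only member that passed with the block whichever replicate pair was left out (adjusted p from 4.4e-06 to 0.032). Blocked fits without a pair have few libraries left for their terms. Their small p-values therefore rest largely on the spread that limma borrows from other genes. The adjusted p of Cd7 over all alternatives ranged from 4.4e-06 to 0.642, the highest with a pseudocount of 0.1.

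Cd27, a receptor of the tumour necrosis factor family on early multipotent and lymphoid progenitors, had 72.7, 69.6 and 67.96 FPKM in Uhrf1-/- LSK cells, against 106.2, 91.9 and 110.8 FPKM in wild-type LSK cells. Again the ranges were separate, and the gap was small beside the level (log2 fold change -0.54, 95% interval -1.11 to 0.02, adjusted p = 0.928, with the block 0.406). Cd52, a small glycosylated lymphocyte antigen, was the most abundant member per unit length. It had 339.5, 354.2 and 201.3 FPKM in Uhrf1-/- LSK cells, against 527.3, 151.4 and 292.6 FPKM in wild-type LSK cells. The wild-type libraries spanned the Uhrf1-/- ones (log2 fold change 0.02, 95% interval -1.02 to 1.051), and the sign turned on the deposited count values.

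Of the T lineage factors, Satb1, a chromatin organiser that acts in early T cell development (Entrez gene 20230, chromosome 17, 51736187 to 51833290, minus strand), had 6.69, 6.39 and 5.26 FPKM in Uhrf1-/- LSK cells, against 13.5, 12.7 and 18.05 FPKM in wild-type LSK cells. The groups did not overlap. The mean was 6.11 ± 0.752 FPKM in Uhrf1-/- and 14.7 ± 2.90 FPKM in wild-type LSK cells (SD, n = 3 each). This difference, -1.13 on the log2 scale with an SE of 0.26, had an adjusted p = 0.158, and 0.016 with the block. With the block Satb1 did not pass without pair 2 (adjusted p = 0.172) or pair 3 (0.375), and over the alternatives its adjusted p ranged from 0.0023 to 0.551.

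Gata3, which directs T cell and innate lymphoid development, had 3.38, 2.52 and 3.58 FPKM in Uhrf1-/- LSK cells, against 3.68, 3.70 and 3.17 FPKM in wild-type LSK cells. These ranges overlapped (log2 fold change -0.13, 95% interval -0.67 to 0.42, adjusted p = 0.960). Tcf7 and Lef1, high-mobility-group partners of beta-catenin in T cell precursors, stayed below the minimum. Tcf7 had 44, 29 and 39 estimated reads in Uhrf1-/- LSK cells, against 16, 60 and 20 in wild-type LSK cells, and Lef1 had at most 2 in any library.

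The recombination genes Rag1 and Rag2 lie 5723 bases apart on chromosome 2. Rag2 (Entrez gene 19374, 101624712 to 101632528, plus strand), a subunit of the recombinase, had 0.386, 0.495 and 0.137 FPKM in Uhrf1-/- LSK cells, against 1.07, 2.74 and 1.64 FPKM in wild-type LSK cells. The estimated reads were 38, 50 and 16 in Uhrf1-/- libraries, against 92, 325 and 240 in wild-type libraries, and the groups did not overlap. The log2 fold change was -1.04 (SE 0.28, adjusted p = 0.252, with the block 0.025), and -1.89 on the deposited count values. With the block Rag2 did not pass without pair 2 (adjusted p = 0.439), and over the alternatives its adjusted p ranged from 0.00023 to 0.707.

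Rag1, the catalytic subunit, had 7, 3 and 12 estimated reads in Uhrf1-/- LSK cells, against 18, 24 and 64 in wild-type LSK cells, and was below the minimum. The uncharacterised gene B230118H07Rik shares 208 exonic bases with Rag2, on the opposite strand, and 80 with Rag1, on the same strand. The sources used here do not say whether the counting used the strand. B230118H07Rik had 18.2, 22.04 and 12.8 FPKM in Uhrf1-/- LSK cells, against 21.0, 16.7 and 15.9 FPKM in wild-type LSK cells (log2 fold change -0.03, adjusted p = 0.995). Dntt had at most 4 estimated reads in any library.

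Among the E proteins and their inhibitors, Id2 differed most. Id2 dimerises with E proteins and keeps them from binding DNA. It had 15.3, 15.3 and 4.94 FPKM in Uhrf1-/- LSK cells, against 26.3, 23.2 and 24.4 FPKM in wild-type LSK cells. All Uhrf1-/- values were below all wild-type values, and Uhrf1-/- replicate 3 was far below the other two. The log2 fold change was -1.13 (95% interval -1.98 to -0.29, adjusted p = 0.556, with the block 0.051), and with the block on the deposited count values Id2 was called (adjusted p = 0.031). Within the replicate numbers the difference was -0.74, -0.57 and -2.10, and without pair 1 the blocked adjusted p was 0.0013, the lowest of its alternatives, which reached 0.9996.

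Id3, the paralogue that acts on the same partners, had 89.2, 101.2 and 90.1 FPKM in Uhrf1-/- LSK cells, against 125.5, 74.1 and 121.7 FPKM in wild-type LSK cells. The wild-type libraries lay on both sides of the Uhrf1-/- ones (log2 fold change -0.16, 95% interval -0.81 to 0.50). Tcf3, which encodes the E proteins E12 and E47, had 72.8, 65.7 and 54.2 FPKM in Uhrf1-/- LSK cells, against 62.7, 97.9 and 44.1 FPKM in wild-type LSK cells, with a log2 fold change of -0.02 (95% interval -0.74 to 0.69) whose sign turned under median-of-ratios scaling. Tcf4, an E protein that also drives plasmacytoid dendritic cells, had 4.99, 5.05 and 7.08 FPKM in Uhrf1-/- LSK cells, against 7.82, 7.96 and 12.6 FPKM in wild-type LSK cells. The Tcf4 groups did not overlap, but the difference was not called (log2 fold change -0.62, adjusted p = 0.900, with the block 0.263).

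Of the Ikaros family, Ikzf1, the founding zinc finger factor of lymphoid specification, had 20.6, 18.96 and 23.3 FPKM in Uhrf1-/- LSK cells, against 29.5, 20.8 and 43.3 FPKM in wild-type LSK cells. The ranges overlapped at wild-type replicate 2 (log2 fold change -0.50, 95% interval -1.16 to 0.16, adjusted p = 0.942). Ikzf2, or Helios, had 5.89, 6.02 and 9.23 FPKM in Uhrf1-/- LSK cells, against 5.18, 3.29 and 7.53 FPKM in wild-type LSK cells. It was higher within each of the 3 replicate numbers, and the difference was not called (log2 fold change 0.38, 95% interval -0.33 to 1.08, adjusted p = 0.942). Ikzf3, or Aiolos, which appears later in lymphocyte maturation, had at most 5 estimated reads in any library.

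The B lineage factor Bcl11a, a zinc finger repressor also known for fetal globin silencing in human cells, had 41.9, 38.2 and 38.4 FPKM in Uhrf1-/- LSK cells, against 57.9, 44.97 and 51.0 FPKM in wild-type LSK cells. The groups did not overlap, and the difference was not called (log2 fold change -0.36, 95% interval -0.90 to 0.18, adjusted p = 0.942). Ebf1, which opens the B cell programme, was below the minimum, with 0, 5 and 0 estimated reads in Uhrf1-/- LSK cells, against 19, 21 and 66 in wild-type LSK cells. Pax5, which locks B cell commitment, was listed at 0 in every library other than wild-type replicate 3, which had 10 estimated reads.

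The pre-B cell receptor genes showed no common direction. Cd79b, a signalling chain of the B cell receptor, had 88.1, 94.0 and 70.1 FPKM in Uhrf1-/- LSK cells, against 114.8, 56.4 and 103.6 FPKM in wild-type LSK cells (log2 fold change -0.07, 95% interval -0.79 to 0.65). Its partner Cd79a had 1.54, 1.5004 and 2.05 FPKM in Uhrf1-/- LSK cells, against 0.964, 0.959 and 3.97 FPKM in wild-type LSK cells. The 2 chains of this heterodimer thus stood far apart in level per unit length, and for each the wild-type libraries lay on both sides of the Uhrf1-/- ones.

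Vpreb1 and Igll1 encode the surrogate light chain and lie 4415 bases apart on chromosome 16. Vpreb1 had 24, 40 and 11 estimated reads in Uhrf1-/- LSK cells, against 19, 17 and 32 in wild-type LSK cells. Vpreb2, its close paralogue, is listed separately in the table, and since it was not tested whether the counting split reads between them, the Vpreb1 values are uncertain. Igll1 had 2, 0 and 16 estimated reads in Uhrf1-/- LSK cells, against 3, 2 and 51 in wild-type LSK cells, so replicate 3 was the highest library in both genotypes. Blnk, the adaptor downstream of the pre-B cell receptor, had 2, 0 and 0 estimated reads in Uhrf1-/- LSK cells, against 7, 11 and 9 in wild-type LSK cells.

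**Figure D2:**
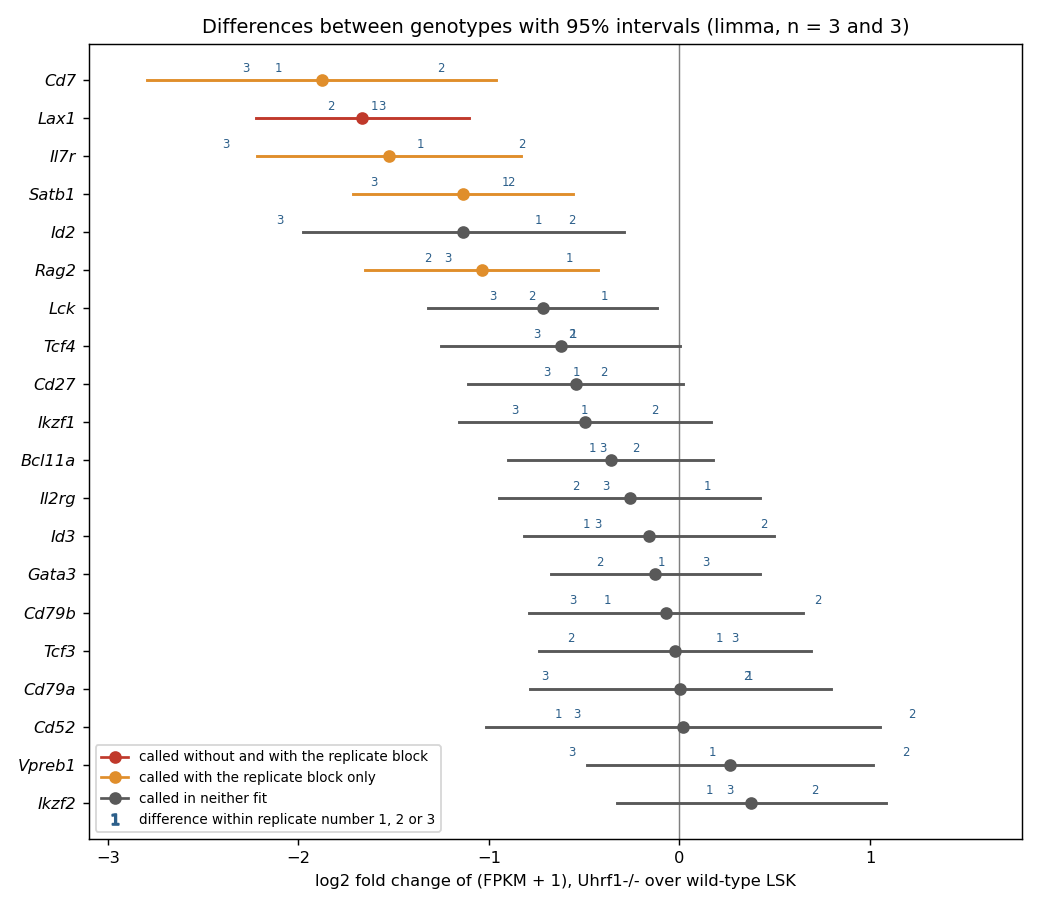
Log2 fold change of FPKM + 1 in Uhrf1-/- over wild-type LSK cells for the 20 tested genes, with 95% intervals from the limma fit without a block. Small digits give the difference within replicate number 1, 2 and 3. Lax1 at -1.66 was called in both fits, Cd7, Il7r, Satb1 and Rag2 with the block only, and the intervals of Tcf4 and every gene nearer to 0 or above it span 0.

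The 11 members below the minimum had at most 66 estimated reads in any LSK library. When genes with low values were kept, 16724 genes were tested and 10 of these 11 entered the fit, all but Cd3e. None of the 10 was called by limma with or without the block, as was 0% of all genes in that fit. An unadjusted p under 0.05 was found for Ebf1, Rag1 and Blnk, that is for 3 of the 10, against 5.78% of all genes. In these 3 genes each Uhrf1-/- library was below each wild-type LSK library, at few reads. The p-values come from the same values, so this separation adds no support. The share of all genes in that fit with such a separation is not given here.

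**Figure D3:**
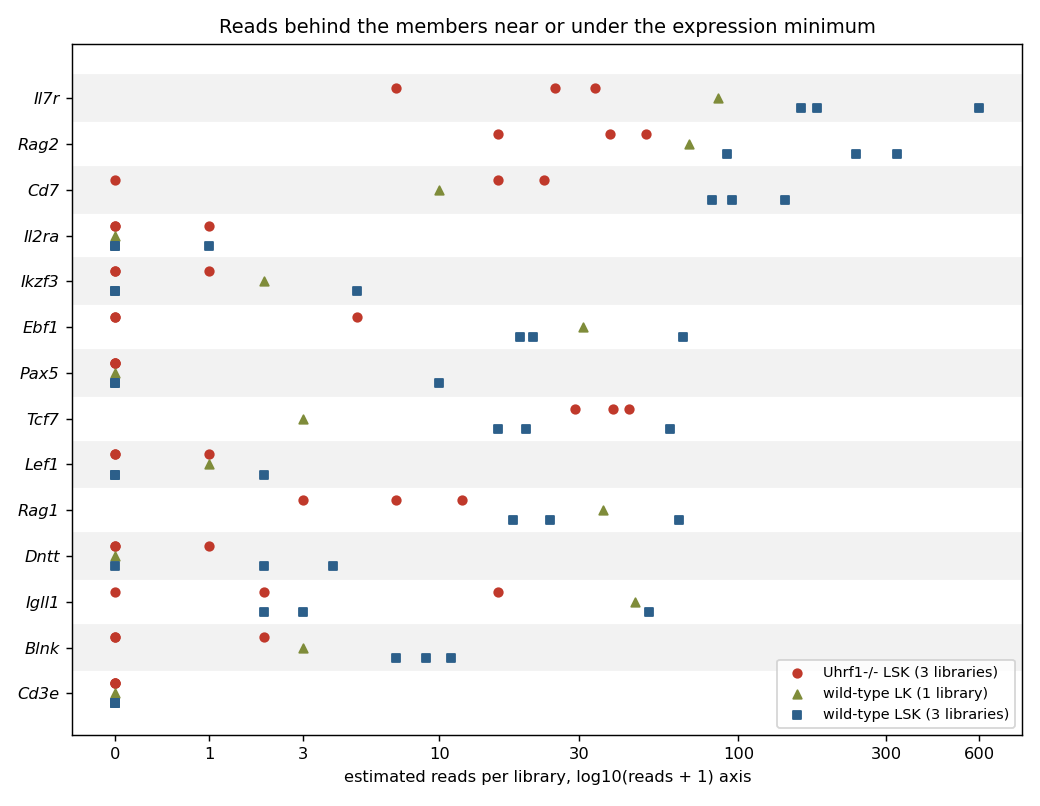
Estimated reads per library, on a log10(reads + 1) axis, for Il7r, Rag2 and Cd7 and for the 11 members below the expression minimum. Circles are Uhrf1-/- LSK, triangles wild-type LK and squares wild-type LSK libraries. Il7r had 7 to 34 reads in Uhrf1-/- and 159 to 600 reads in wild-type LSK libraries, and Ebf1, Rag1 and Blnk also show no overlap.

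Wild-type libraries differed among themselves. Of the 30 members above 0 in a wild-type LSK library, 14 were highest in replicate 3, 9 in replicate 2 and 7 in replicate 1. Among the 20 tested members the counts were 8, 5 and 7, while 28.5%, 41.0% and 30.5% of all tested genes were highest in replicate 3, 2 and 1.

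The LK library asked how these genes stand in progenitors without Sca-1. With 1 library there is no test, and a gene was counted where LK lay outside the wild-type LSK range and at least 2-fold from its mean on the log2(FPKM + 1) scale. Over the 4 wild-type libraries, 21 members reached the minimum. LK was lower for 10 of them, against 12.5% of the 10680 genes compared, and higher for 1, against 9.0%. The median difference was -0.79 over the 21 members and 0.07 over all genes compared.

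Lax1 had 0.575 FPKM in LK cells, against 17.9 to 23.96 FPKM in wild-type LSK cells, a difference of -3.72 on the log2(FPKM + 1) scale. Lck and Cd27 followed with differences of -2.48 and -2.47, and Cd7, Id3, Gata3, Il2rg, Satb1, Cd79b and Id2 with differences from -2.08 to -1.15. The gene that was higher, Igll1, had 46 estimated reads in LK cells, against 3, 2 and 51 in wild-type LSK cells. Its difference of 1.11 is from a mean that its lower replicates 1 and 2 set, and LK exceeded replicate 3 only slightly, at 2.63 against 2.43 FPKM. Ikzf1 with 43.5 FPKM and Bcl11a with 68.5 FPKM in LK cells were above the wild-type LSK range without reaching 2-fold.

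The Uhrf1-/- and LK comparisons share the wild-type LSK libraries, so their values are given side by side only. In 10 tested members every Uhrf1-/- library was below every wild-type LSK library. LK was below the wild-type LSK range in 9 of these and above it in 1, Bcl11a. Of all 21 members compared, LK was below that range in 13. The share over all genes is not given here, so these counts are a description only. Id3 had 89.2 to 101.2 FPKM in Uhrf1-/- LSK cells, 25.5 FPKM in LK cells and 74.1 to 125.5 FPKM in wild-type LSK cells. Gata3 had 2.52 to 3.58 FPKM in Uhrf1-/- LSK cells, 0.170 FPKM in LK cells and 3.17 to 3.70 FPKM in wild-type LSK cells. For these genes the LK level was far below that of both LSK genotypes. Il7r showed another order, with 0.0679 to 0.371 FPKM in Uhrf1-/- LSK cells, 1.055 FPKM in LK cells and 1.43 to 4.56 FPKM in wild-type LSK cells. Among the tested members, Rag2 and Tcf4 had the same order as Il7r, with 0.783 and 7.26 FPKM in LK cells. Bcl11a had 38.2 to 41.9 FPKM in Uhrf1-/- LSK cells, 68.5 FPKM in LK cells and 44.97 to 57.9 FPKM in wild-type LSK cells, the Uhrf1-/- and LK values lying on opposite sides of the wild-type LSK range.

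**Figure D4:**
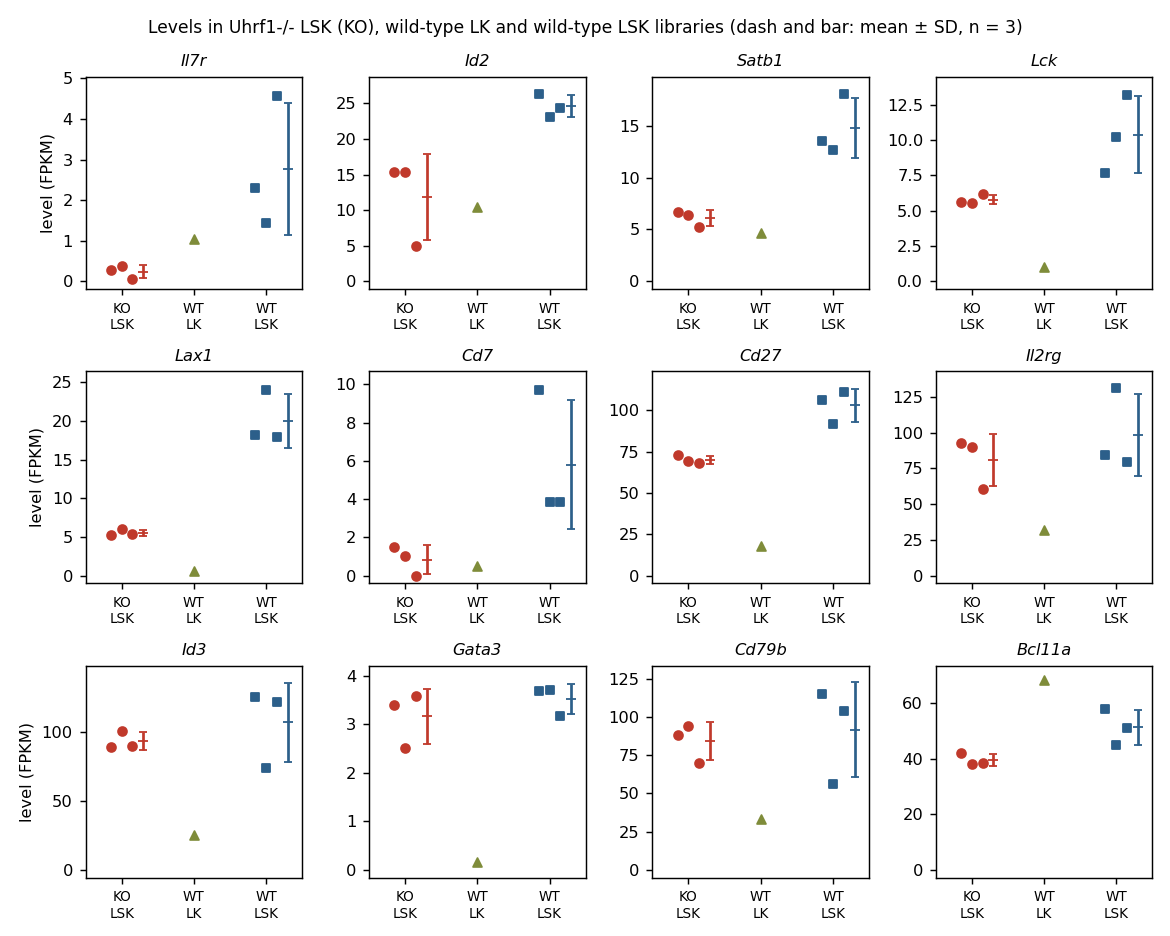
Level in FPKM of 12 members in the 3 Uhrf1-/- LSK (KO), 1 wild-type LK and 3 wild-type LSK libraries, with the mean and SD of 3 libraries beside each LSK group and each axis shown from 0. Id3 and Gata3 are low in LK cells alone, Il7r is lowest in Uhrf1-/- LSK cells, and Bcl11a is highest in LK cells at 68.5 FPKM.

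Other genes of the lymphoid programme were followed in 4 lists, whose tested genes had median log2 fold changes of -0.46 (lymphoid progenitor and B lineage), 0.28 (T, NK and innate lymphoid), 0.35 (interleukin-7 receptor signalling) and 0.43 (partners and paralogues), beside -0.03 over all tested genes. Of 14 tested lymphoid progenitor and B lineage genes, 1 was called lower and 5 were lower with the block, with 0 higher in either fit. Over all tested genes 0.0566% were called lower and 0.113% higher, and with the block 0.830% lower and 1.23% higher, which holds for the other 3 lists as well. Called lower were the chemokine receptor genes Ccr9 (log2 fold change -1.92, adjusted p = 0.030) and Ccr7 (-2.02, with the block 4.9e-05), Flt3, a receptor tyrosine kinase of early multipotent and lymphoid cells (-1.73, with the block 0.00044), Notch1 (-1.14, with the block 0.016) and Rasgrp3, a signalling exchange factor of B cells (-1.25, with the block 0.0042). Ccr9, Ccr7, Rasgrp3 and the uncalled Vpreb3 averaged under 1 FPKM in Uhrf1-/- LSK cells and reached the minimum through their wild-type level alone. The counts for this list therefore describe the genes that passed and are no test of it. Of 7 tested T, NK and innate lymphoid genes, 0 were called without the block, where 2 had an unadjusted limma p under 0.05. With the block the transcription factor genes Tox (-1.26, adjusted p = 0.0073) and Nfil3 (-1.08, adjusted p = 0.027) fell.

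Of 11 tested genes of interleukin-7 receptor signalling, 0 were called without the block, where 1, Cish, had an unadjusted limma p under 0.05. With the block Socs1, a feedback inhibitor of cytokine signalling, rose (21.7 ± 15.8 FPKM in Uhrf1-/- and 8.89 ± 6.35 FPKM in wild-type LSK cells, SD, n = 3 each, blocked adjusted p = 0.026). Without the block its adjusted limma p was 0.942. Replicate 3 had 3.60 FPKM in Uhrf1-/- and 1.85 FPKM in wild-type LSK cells, far below replicates 1 and 2 of both genotypes. Of 10 tested partners and paralogues of the member factors, Gata1 and Gata2 were called higher. Gata1, the erythroid and megakaryocytic regulator, averaged 59.4 ± 7.78 FPKM in Uhrf1-/- and 6.43 ± 3.80 FPKM in wild-type LSK cells (SD, n = 3 each, log2 fold change by limma 3.19). Gata2 averaged 112.9 ± 8.31 FPKM in Uhrf1-/- and 32.6 ± 8.74 FPKM in wild-type LSK cells (log2 fold change 1.79, adjusted p = 0.039), while its paralogue Gata3 was not called. The Id paralogue Id1 averaged 93.5 ± 12.4 FPKM in Uhrf1-/- and 67.3 ± 26.9 FPKM in wild-type LSK cells and was not called (adjusted p = 0.942).

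Markers of other cells also differed between libraries. A list of 8 dendritic cell markers summed to between 3.36 and 8.61 FPKM in Uhrf1-/- LSK cells, 8.66 FPKM in LK cells and between 12.9 and 38.2 FPKM in wild-type LSK cells. In 4 of the 8, every Uhrf1-/- library was below every wild-type LSK library, which held for 6.16% of tested genes. Of these 4, Itgax and Siglech were below the minimum and are not among the tested genes. Cox6a2 made up most of the sum in every wild-type LSK library. It ranged from 0.866 to 6.13 FPKM in Uhrf1-/- and from 7.47 to 31.7 FPKM in wild-type LSK cells. Pacsin1 ranged from 1.76 to 2.60 FPKM in Uhrf1-/- and from 3.33 to 5.95 FPKM in wild-type LSK cells. Itgax reached at most 0.0277 FPKM in Uhrf1-/- and ranged from 0.283 to 1.01 FPKM in wild-type LSK cells, and Siglech reached at most 0.0532 FPKM in Uhrf1-/- and ranged from 0.219 to 0.472 FPKM in wild-type LSK cells. Zbtb46, Xcr1 and Cd209a did not separate the genotypes, and Klk1 was listed at 0 in every library. In replicates 1, 2 and 3 the 8 macrophage markers summed to 36.1, 38.2 and 2.96 FPKM in Uhrf1-/- LSK cells. In wild-type LSK cells they summed to 150.8, 74.4 and 1.17 FPKM. The Uhrf1-/- sum was thus lower within replicate numbers 1 and 2 and higher within number 3. The 7 markers of mature T or NK cells summed to between 2.54 and 3.14 FPKM in Uhrf1-/- and between 3.29 and 4.30 FPKM in wild-type LSK cells. None of the 7 separated the genotypes by itself. Cd4 made up most of the sum in every LSK library. Its ranges overlapped, at 1.48 to 2.38 FPKM in Uhrf1-/- and 2.18 to 2.68 FPKM in wild-type LSK cells. The 4 matched markers of mature B cells stayed under 1 FPKM in each LSK library. The 5 matched erythroblast markers summed to between 4.43 and 29.7 FPKM in Uhrf1-/- LSK cells, 689.4 FPKM in LK cells and between 5.07 and 80.7 FPKM in wild-type LSK cells. The part of such cells in the member differences was not tested.

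Promoter sequences give features that played no part in choosing the genes. The windows are the 250 bases before the most upstream of the RefSeq starts in the promoter table used (GRCm38.p6), which is not always the outer end of the annotated gene. They are printed 5′ to 3′ for the called members with an entry, with each CG dinucleotide in capitals, since CG is the site whose methylation Uhrf1 helps to maintain. They lie at chr1:133690109-133690358 (Lax1, minus strand), chr15:9529877-9530126 (Il7r, minus strand), chr17:51833291-51833540 (Satb1, minus strand) and chr2:101624462-101624711 (Rag2, plus strand). The annotated gene covers all 250 bases of the Lax1 window and 65 bases of the Il7r window, as it covers some or all of the window in 9 of the 25 members with an entry, Ikzf1 and Tcf7 included.
Lax1: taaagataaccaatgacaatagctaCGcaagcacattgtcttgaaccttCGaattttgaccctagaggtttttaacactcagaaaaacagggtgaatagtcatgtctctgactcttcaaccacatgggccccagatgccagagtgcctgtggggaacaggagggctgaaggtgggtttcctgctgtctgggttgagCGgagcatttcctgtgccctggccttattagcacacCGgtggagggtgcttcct
Il7r: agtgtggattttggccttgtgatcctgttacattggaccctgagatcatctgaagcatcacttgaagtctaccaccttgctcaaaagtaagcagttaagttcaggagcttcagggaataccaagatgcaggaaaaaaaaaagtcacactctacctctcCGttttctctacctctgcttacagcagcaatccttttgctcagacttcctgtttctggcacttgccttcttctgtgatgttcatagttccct
Satb1: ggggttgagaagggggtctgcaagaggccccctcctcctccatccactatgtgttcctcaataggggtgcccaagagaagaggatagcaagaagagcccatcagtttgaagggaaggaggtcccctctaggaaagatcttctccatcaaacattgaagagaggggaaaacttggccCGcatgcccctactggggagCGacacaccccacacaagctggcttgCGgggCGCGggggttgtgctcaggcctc
Rag2: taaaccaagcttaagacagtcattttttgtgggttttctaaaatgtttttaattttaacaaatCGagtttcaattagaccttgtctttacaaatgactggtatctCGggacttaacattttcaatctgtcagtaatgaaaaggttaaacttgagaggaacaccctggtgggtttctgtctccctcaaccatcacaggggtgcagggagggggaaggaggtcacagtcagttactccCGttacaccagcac

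The windows of Lax1, Il7r, Satb1 and Rag2 held 4, 1, 5 and 3 CG dinucleotides. The median was 6 over the 25 members with an entry and also 6 over all 27025 genes with one. Members that were not called stood at both ends. The windows of Lck and Igll1 held 1 each and those of Vpreb1 and Dntt 2 each. The windows of Ikzf1 and Tcf7 held 44 and 37, more than in 99.5% and 97.9% of genes. Igll1, Dntt and Tcf7 were below the expression minimum. DNA methylation was not measured in these libraries. The E protein motifs CAGCTG or CAGGTG, sought on both strands, stood in 7 of the 25 member windows and in 27.4% of all windows, and in none of the 4 printed above. The Runx motif TGTGGT stood in 6 member windows, among them that of Lax1, and in 14.2% of all windows. The motif TGGGAA, which holds the Ikaros core, stood in 5 member windows and in 21.5% of all windows.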

How the data were processed

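RNA sequencing of 7 libraries was deposited as 1 table of 22680 genes, with a count value and an FPKM per library. The count values, so named per the file headers, were not whole and were treated as a scaled signal. In each library between 98.2% and 98.6% of values under 100 steps were whole numbers of that library's step to within 0.02 steps. The rest were fractional, so no count model was run. The authors' FPKM values were used unchanged. Per the submitters' processing notes, which assign no step to any of them, the tools were TopHat2 2.0.9 and Cufflinks 2.1.1 and the build mm10. No source used here gives the annotation or strand setting. The number of sample columns left without a sample was 0.

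The 6 LSK libraries entered a limma fit (version 3.58.1, R 4.3.3) of log2(FPKM + 1) by genotype, with trend and robust moderation, two-sided p-values, Benjamini-Hochberg adjustment over every gene averaging 1 FPKM or more, and a threshold of 0.05, after the fit was tested on simulated data. These fold changes understate the change of low genes. The p-values reflect only how far these libraries differ from each other, since the labels do not tie them to separate animals. Same-numbered libraries deviated together from their group means (correlations 0.349, 0.332 and 0.645), so the numbers were read as pairs and blocked values are given. What same-numbered libraries share is not in the labels, and other pairings reached 0.213. Estimated reads are count values divided by the step. An exact 0 is a listed value. Coordinates, promoters and names come from RefSeq on GRCm38.p6 by Entrez ID, and overlaps from GENCODE M21. All 31 members are named. From the other lists, genes called in either fit are named, at most 5 per list, and Id1, Cish and the marker genes were added after their values were seen. Members and lists were chosen with earlier results of these data known.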

Additional observations from a re-analysis of the deposited data

How the results depend on the processing

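Of the results of single members, 21 changed sign when a library or pair was left out and 5 under other settings, each for a gene that was not called in either fit. On the deposited count values, with or without the replicate block, the log2 fold changes of Cd79a and Cd52 were -0.053 and -0.055, and that of Tcf3 was 0.034 after median-of-ratios scaling. With libraries or pairs left out, the log2 fold change ranged from -0.29 to 0.27 for Tcf3, from -0.22 to 0.45 for Cd79a, from -0.47 to 0.17 for Cd79b, from -0.59 to 0.46 for Cd52, from -0.20 to 0.68 for Vpreb1, from -0.46 to 0.0072 for Id3 and from -0.26 to 0.021 for Gata3. The causes were not tested.

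Over all genes, 18 were called. With the replicate block 219 were called and 5 members among them, with the block on the deposited count values 209 and 6, Id2 being the further member (adjusted p = 0.031). Without a filter on low values 0 genes and 0 members were called by limma, with or without the block, although an unadjusted p under 0.05 was reached by 967 genes without the block and 1398 with it, and the median member log2 fold change was -0.20. With neither trend nor robust moderation 9 genes and 0 members were called, and 8 members had an unadjusted p under 0.05. On the deposited count values without the block 2 members, Il7r and Lax1, were called. With a library or pair left out, the number of genes called ranged from 0 to 656, that of members from 0 to 6, and the median member log2 fold change from -0.60 to -0.33. The 656 came from a blocked fit without a pair, where calls rest largely on the spread limma borrows across genes. The combinations of the block with no filter or with the count values were chosen after seeing the data. Members below the minimum had at most 66 estimated reads in any LSK library, which limits what could be detected there.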
